A study of Mus musculus with 15 samples.

Results

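Messenger RNA of cells that carried a short hairpin RNA against TMEM45A was compared with that of cells that carried a control hairpin. The libraries are the 3 whose columns are numbered 4 in the deposited table of TMEM45A hairpins, called set 4 here, and the 3 control libraries, called NC after their label (sh_NC), which makes 6 of the 15 libraries of the series. The other 9 carried hairpins against SHCBP1 (6 libraries) or the second TMEM45A hairpin (3 libraries, called set 2). All are labelled MDA-MB-468, a human line from an invasive breast carcinoma, grown in DMEM with fetal bovine serum, and no group was left without a hairpin. The labels number the TMEM45A sets 1 and 2 while the columns are numbered 2 and 4, so set 4 was taken as the labels' set 1 (shTMEM45A_1) by elimination. NC was deposited in 1 table, with the SHCBP1 hairpins, and set 4 in another. The target and the table can therefore not be told apart in any comparison of set 4 with NC. The sources used here do not state how long after the hairpin the sequenced RNA was taken. They are also silent on whether replicate libraries stem from separate cultures, so p-values reflect only how far these libraries scatter, which may be technical scatter.

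TMEM45A encodes a small multi-pass membrane protein of the Golgi and related compartments, known from keratinizing epidermis and from work on hypoxia and drug resistance in breast cancer cells. A short hairpin RNA is cut by the cell's microRNA machinery into a guide strand, which Argonaute uses to find transcripts by pairing, and the bases next to the guide's 5′ end, the seed, matter most for pairing with other transcripts too. Double-stranded RNA inside cells is also sensed by RIG-I (DDX58), MDA5 (IFIH1) and the kinase PKR (EIF2AK2), which lead to interferon and to a halt of translation. The stated hairpins stand in a stem and loop of the microRNA-30 type. The guides of both are shown because the sources do not say which of them set 4 carries. Each is 22 nt long and written 5′ to 3′ as DNA, with the seed, bases 2 to 8, in capitals.
sh-TMEM45A-1: tTAAATTCaaatactttaacca
sh-TMEM45A-2: tCAGAATActctttgtacacca
The seeds differ, and 18.2% of the bases of the first guide and 36.4% of those of the second are G or C. In each hairpin 21 of the 22 guide bases pair with the opposite strand.

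Library totals ran from 14123463 to 14400254 counts in NC and from 14754541 to 16484000 in set 4. A count of 3, the floor used here, was worth at most 0.229 CPM (counts relative to the TMM-scaled library total) in these 6 libraries. Set 4 libraries had a count in 23370 to 23618 gene names against 26589 to 26752 in NC, although they held more counts. The label of a basal-like breast line was checked against markers. The basal keratin genes KRT5, KRT6A, KRT6B and KRT16 and the basal factor TP63 were at 0 counts in all 6 libraries, and 13 of 26 basal and squamous markers had enough counts to be tested, with a summed level of 190.5 to 196.5 CPM in NC and 164.3 to 180.2 in set 4. EGFR, which is known to be amplified in MDA-MB-468, stood at 17.5, 16.2 and 15.2 CPM in NC and 8.16, 6.96 and 9.62 in set 4, so these data do not bear the label out in either group. Simple epithelial markers summed to 168.9 to 172.4 CPM in NC and 344.7 to 389.1 in set 4, with KRT18 at 44.6 ± 1.01 and 144 ± 10.5 CPM (SD, n = 3). A list of 8 genes known from a widely used embryonic kidney line summed to 5260.3 to 5633 CPM in NC, most of it XIST, and 315.3 to 354.6 in set 4, and its neurofilament gene NEFL stood at 176 ± 5.52 and 67.5 ± 4.61 CPM. Fibroblast markers summed to 48.6 to 52.6 CPM in NC and 31.2 to 36.9 in set 4, endothelial markers to 1.39 to 2.0 and 0.879 to 2.06, and leukocyte markers to 6.65 to 7.98 and 10.4 to 14.0, with PTPRC, CD3D, CD3E and MS4A1 at 0 counts in all 6. The part of these marker differences in the results below was not tested. In bulk RNA, fewer cells of a type and less RNA per cell cannot be told apart.

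The targeted transcript was looked at first. TMEM45A stood at 27.6, 24.2 and 28.1 CPM in the NC libraries and at 18.2, 15.8 and 19.4 in those of set 4. All 3 set 4 libraries lay below all 3 of NC, and the gene fell by 0.58 on the log2 scale (SE 0.10, edgeR quasi-likelihood test, adjusted p = 8.8e-06), to about the level of set 2 (19.4 ± 0.761 CPM). Its relative TMEM45B, of the same family, was low, at 0.902, 0.56 and 0.829 CPM in NC and 2.2, 1.25 and 1.83 in set 4. Its change of 1.20 (SE 0.46, adjusted p = 0.021) passed, but no longer without NC replicate 2 or without set 4 replicate 1. SHCBP1, the target of the other hairpins, stood at 44.1 CPM in NC and 52.4 in set 4. Its log2 change of 0.25 (adjusted p = 0.0036) was 0.059 under total-count scaling and 0.061 once a trend with transcript length was removed, and no longer passed in either.

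How far the rest of the transcriptome moved sets the scale for every group of genes below. Of 19051 genes tested, 14176 (74.4%) passed an adjusted p of 0.05, 6774 (35.6%) of them higher in set 4 and 7402 (38.9%) lower. More than 2-fold changes were called in 7373 genes (38.7%), with 3566 higher (18.7%) and 3807 lower (20.0%). Over 8-fold, 264 genes were higher (1.39%) and 1052 lower (5.52%). The 3 libraries of set 4 lay apart from the 3 of NC in 76.1% of genes, 36.2% above and 40.0% below. The median log2 change over all genes was -0.03, with quartiles of -0.83 and 0.77. A gene that is called, or whose groups do not overlap, is therefore the usual case here. Genes under 1 CPM were called least often, with 20.1% higher and 33.7% lower, but nearly all of these calls were over 2-fold (53.8% of the genes). Strongly expressed genes more often rose, with 52.3% higher and 38.5% lower at 100 CPM or more. Genes named below with a log2 change passed edgeR's threshold unless an adjusted p above it is given.

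**Figure D1:**
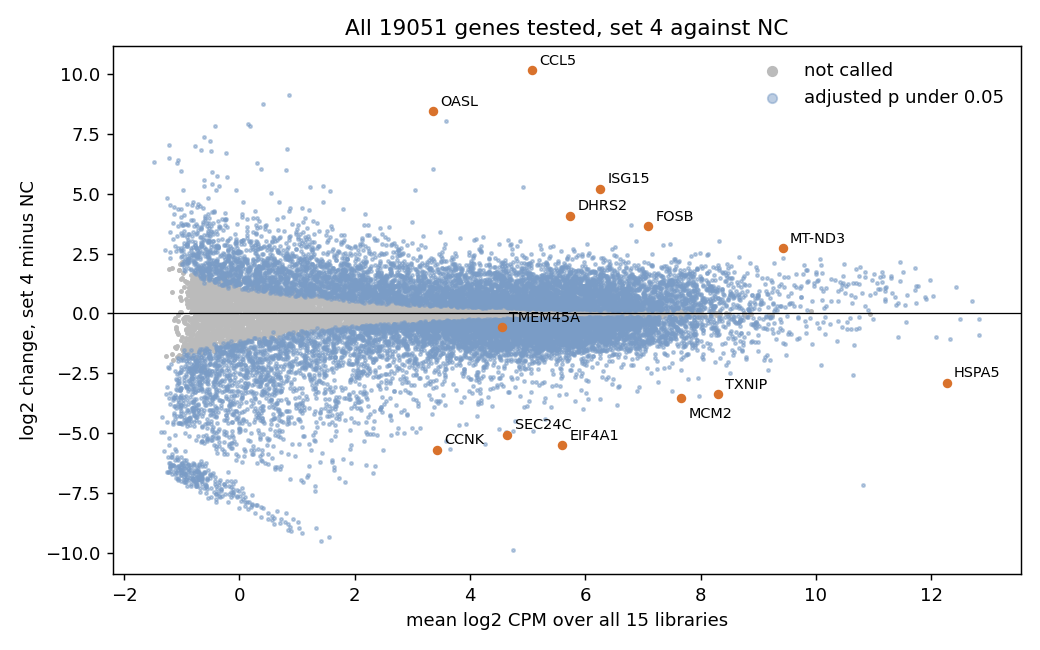
Log2 change of set 4 against NC (vertical axis) by mean log2 CPM over the 15 libraries (horizontal axis) for each of 19051 genes, with called genes in blue and some named genes in orange. The cloud of called genes fills both sides of 0 at all levels, and TMEM45A lies inside it at -0.58. For genes at 0 counts in a group, which make up most of the band at the lower left, the plotted value depends on the prior count.

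The largest changes were ranked with antisense, readthrough, clone-type, LINC and most pseudogene names left out, so larger changes may exist among those names. Among the remaining genes, the rises were led by interferon-stimulated genes. The 12 largest rises at a mean log2 CPM of at least 2 were, in order, CCL5, OASL, IFIT2, IFIT3, IFIT1, ISG15, KLKP1, DHRS2, HES5, RN7SL2, FOSB and MAFG-DT. HES5 is a Notch target, and DHRS2 a short-chain dehydrogenase that went from 4.31 ± 0.306 to 72.7 ± 1.57 CPM. KLKP1 is a kallikrein pseudogene and RN7SL2 has near-identical copies, so the values of both are uncertain. The 12 largest falls were XIST, TMEFF1, CYP51A1, CCNK, KLHL11, EIF4A1, NCR3LG1, LRRC7, SEC24C, SLC16A8, TXNDC5 and HSPG2, with log2 changes from -7.15 to -4.92.

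Interferon beta, 2 inducible chemokines and the sensors RIG-I and MDA5 were higher in set 4, and PKR was lower. IFNB1, which encodes interferon beta, had 0 counts in all 3 NC libraries and stood at 3.43, 2.93 and 4.35 CPM in set 4, with 147 counts in all. Set against a floor of 3 counts over the NC group, it was at least 51.2-fold higher (adjusted p = 6.9e-09). CXCL10, an interferon-induced chemokine, likewise had 0 counts in NC and 5.56, 4.4 and 3.97 CPM in set 4, at least 67.2-fold higher. CCL5, a T cell chemokine, went from 3 counts to 3711, a ratio of 1292 (95% exact interval 442 to 6268, counting error only), at 91.4, 90.3 and 87.5 CPM in set 4. MDA5, from IFIH1, was at 0.208, 0 and 0.138 CPM in NC and 4.46, 6.37 and 3.66 in set 4, a log2 change of 5.28 (SE 0.53). RIG-I, from DDX58, went from 2.83 ± 0.642 to 10.8 ± 1.27 CPM, a change of 1.94. PKR, from EIF2AK2, moved the other way, from 42.1 ± 2.4 to 27.4 ± 1.45 CPM (log2 change -0.62, adjusted p = 5.1e-08), and the signalling adaptor MAVS changed by -0.73. IFIH1, EIF2AK2 and MAVS are named after their values were seen.

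Of 38 interferon-stimulated and RNA-sensing genes tested, 27 rose and 6 fell, against 35.6% and 38.9% of all genes, and their median log2 change was 1.03. More than 2-fold, 20 were higher and 3 lower. OASL, an oligoadenylate synthetase relative that aids RIG-I, had 3 counts in NC and 1116 in set 4, a ratio of 388.6 (95% interval 132.6 to 1887). The translation-blocking protein genes IFIT2 and IFIT3 went from 0.139, 0.14 and 0.0691 and from 0.208, 0.42 and 0.691 CPM in NC to 29.4, 35.7 and 32.1 and to 29.2, 29.7 and 29.8 CPM. ISG15, a ubiquitin-like modifier, rose from 3.89, 5.6 and 5.39 to 193, 194 and 166 CPM. In each of these genes the lowest set 4 library was more than 10 CPM above the highest of NC. Other members of the same list fell. USP18, the protease that takes ISG15 off proteins and damps interferon signalling, went from 24.3 ± 0.626 to 7.6 ± 2.22 CPM (log2 change -1.68, SE 0.15), OAS3, the long oligoadenylate synthetase, changed by -1.50, and ADAR, which edits double-stranded RNA and keeps it from being sensed, went from 334 ± 2.94 to 142 ± 6.34 CPM (-1.24). MX1, a classical interferon gene, was at 0.416, 0.42 and 0.622 CPM in NC and 0.686, 0.586 and 0.305 in set 4, and its groups overlapped (log2 change 0.12, adjusted p = 0.87; named after its value was seen). With the length trend removed the median of the 33 members with a length went from 0.89 to 0.51.

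The machinery that carries the interferon signal did not move as 1 block, and its split was near that of all genes. Of 29 receptor, JAK-STAT and IRF genes, 8 rose (27.6%) and 12 fell (41.4%), against 35.6% and 38.9% of all genes. Their median was -0.11. IRF3, the factor that switches on IFNB1, rose from 67.1 ± 3.77 to 178 ± 5.74 CPM (log2 change 1.40), and the type III interferon gene IFNL1 from 0.162 to 1.08 CPM (2.67, adjusted p = 0.0016). IRF9, the DNA-binding subunit of the factor that drives interferon-stimulated genes, stood at 3.89, 4.76 and 4.15 CPM in NC and 0.412, 0.733 and 0.611 in set 4, a change of -2.86 (SE 0.33). IRF7, the amplifier of interferon genes, changed by -1.45 and the kinase JAK2 by -1.48, both lower in set 4.

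NF-kB genes and inducible cytokines had 17 of 31 members higher and 7 lower, with a median log2 change of 0.72. NFKBIA, the inhibitor that NF-kB itself induces, went from 15.3, 15.5 and 16.6 CPM in NC to 73.8, 75.2 and 75.9 in set 4 (log2 change 2.25, SE 0.08). RELB, a subunit of the non-canonical pathway, went from 7.41 ± 0.944 to 26.2 ± 4.2 CPM, and the cytokine gene IL32 from 0.88 ± 0.142 to 7.49 ± 1.17. These 3 genes lay apart between groups in every library, and NFKBIA, RELB and IL32 are named after their values were seen. CXCL8, a neutrophil chemokine, had 0 counts in NC and 0.96, 0.0733 and 1.07 CPM in set 4, at least 10.1-fold higher, with 1 of the 3 libraries close to 0. REL, the c-Rel subunit, fell from 14.7 ± 0.514 to 1.52 ± 0.293 CPM (-3.27, SE 0.19), the adaptor TRAF1 changed by -1.72, and the adhesion gene ICAM1, at 43 counts in NC and 13 in set 4, by -1.63, a call lost without NC replicate 3 or set 4 replicate 1. Class I antigen presentation genes had 13 of 21 higher and 4 lower. The length check is void for this list, with a length for 15 of 21, and among these 15 there were 6 higher and 6 lower once the trend was removed (median -0.092). The immunoproteasome gene PSMB9 rose by 2.21 and the peptide-trimming gene ERAP2 by 2.28, while PSMB8 had 1 count in NC and 30 in set 4, a ratio of 31.3 (5.21 to 1278). TAP1, a subunit of the peptide transporter that loads class I molecules and the neighbour of PSMB9, fell from 40.2 ± 6.05 to 12.8 ± 1.93 CPM (-1.65).

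**Figure D2:**
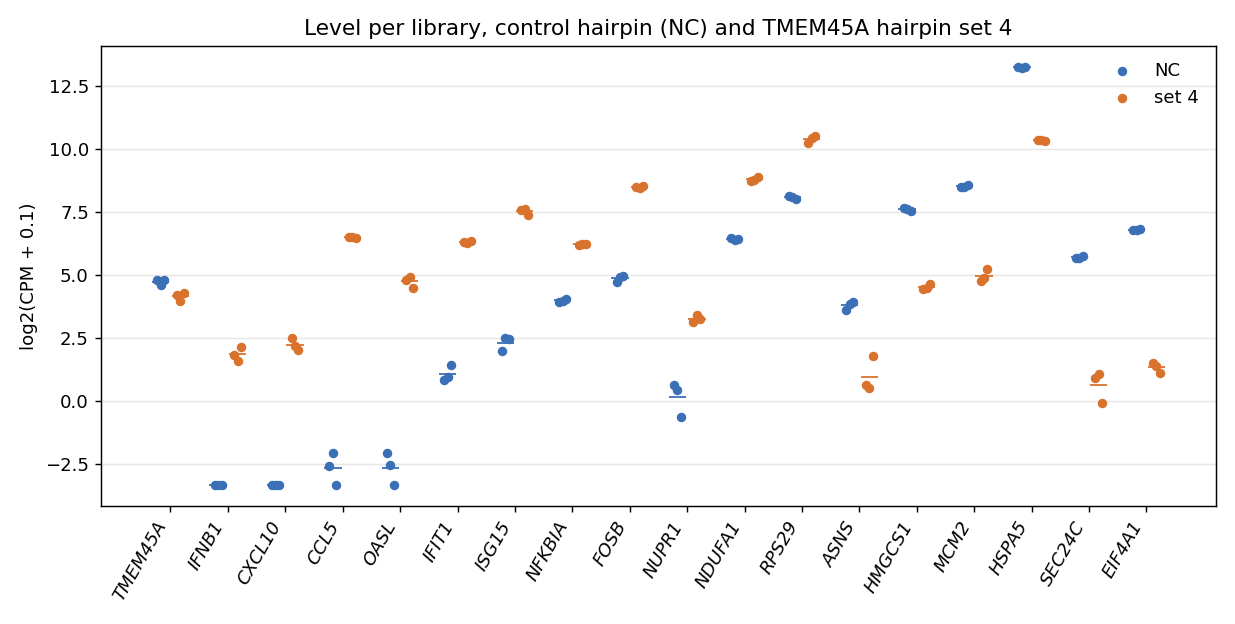
Level of 18 named genes as log2(CPM + 0.1) in each NC library (blue) and set 4 library (orange), with a bar at the group mean. NC libraries of IFNB1 and CXCL10 lie at the floor of the axis because they had 0 counts, and in all 18 genes the libraries of the groups do not overlap.

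Immediate early genes were split by member. Of 33 growth factor early response genes, 11 rose and 11 fell, and their median of 0.08 became -0.11 under total-count scaling and -0.049 with the length trend removed. FOSB, an AP-1 subunit, rose most, from 26.5, 30.2 and 31 CPM in NC to 363, 353 and 372 in set 4, a log2 change of 3.63 (SE 0.06). IER2 went from 51.4 ± 0.73 to 289 ± 17.1 CPM and FOSL1, another AP-1 subunit, from 1.41 ± 0.215 to 6.13 ± 1.87. KLF10 and KLF6, zinc finger factors, changed by -1.22 and -1.00.

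The integrated stress response acts through ATF4, which is translated when PKR and related kinases block general translation. ATF4 transcripts rose from 742, 713 and 740.0 CPM to 1954, 1958 and 1986, a log2 change of 1.43 (SE 0.04). Of 33 genes of the response and of amino acid supply, 18 rose and 13 fell, with a median of 0.31 (0.20 with the length trend removed). NUPR1, a stress-induced chromatin protein, rose from 1.09 ± 0.476 to 9.55 ± 0.957 CPM, CHAC1, a glutathione-degrading enzyme, from 1.34 ± 0.246 to 7.36 ± 0.279, and ATF5 from 4.45 ± 0.348 to 20.5 ± 2.76. The ATF4 target ASNS, asparagine synthetase, moved against them, from 12.3, 14.5 and 15 CPM in NC to 1.44, 1.32 and 3.36 (-2.78, SE 0.21), and ATF3 fell from 589 ± 6.23 to 347 ± 12 CPM. The kinase EIF2AK4, which senses uncharged tRNA, and the phosphatase subunit PPP1R15B changed by -1.20 and -1.10. ATF4 and ATF3 are named after their values were seen.

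Chaperone genes moved in both directions. HSPA5, the main chaperone of the endoplasmic reticulum, was the most abundant of the genes that fell in this list, at 9810.5, 9599.9 and 9761 CPM in NC and 1328, 1305 and 1292 in set 4, a log2 change of -2.89 (SE 0.03). Its partner HYOU1 changed by -2.05 and the disulfide isomerase PDIA6 by -1.84. SEC61G and SEC61B, small subunits of the translocon, rose by 2.18 and 1.82, and the secreted stress protein MANF by 1.51. Over the list, 11 of 32 genes rose and 16 fell, and 14 were higher and 15 lower of the 30 with a length once the length trend was removed. Of 31 cytosolic heat shock and chaperonin genes, 11 rose and 14 fell, against 9 and 16 of 30 without the length trend. The stress-specific HSPA6 went from 0.627 ± 0.308 to 4.37 ± 1.0 CPM and the small heat shock gene HSPB1 from 147 ± 6.0 to 542 ± 21.1. HSPA1A, whose near-identical copy HSPA1B makes its value uncertain, went from 67 ± 13.9 to 18.2 ± 0.78 CPM.

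Genes for glutathione, thioredoxin and NADPH had 23 of 36 members higher and 11 lower, and with the length trend removed their median fell from 0.40 to 0.06. Thioredoxin, TXN, rose from 356 ± 23.1 to 1119.7 ± 35.1 CPM, and the NRF2 target NQO1, a quinone reductase, from 3.4 ± 0.828 to 11.3 ± 0.992. SRXN1, which repairs oxidized peroxiredoxins and is also an NRF2 target, went from 181 counts to 2, a ratio of NC to set 4 of 86.6 (95% interval 23.6 to 721). The title of the series concerns disulfidptosis, a death of cells that take up cystine but lack NADPH to reduce it. Of 10 core genes of that process, 5 rose and 5 fell, with a median of -0.11 that was -0.24 with the length trend removed. SLC3A2, the partner chain of the cystine carrier, stood at 186, 179 and 192 CPM in NC and 546, 509.9 and 501 in set 4 (1.48), and the carrier itself, SLC7A11, went from 6.76 ± 0.459 to 11.5 ± 1.2 CPM (0.76, adjusted p = 9.3e-05). NCKAP1, the WAVE complex subunit on which that death depends, fell from 134 ± 9.65 to 57.6 ± 2.43 CPM (-1.22, SE 0.06), as did LRPPRC, an RNA-binding protein of mitochondria (-0.94). The complex I subunit NDUFA11 rose by 1.01, but stood at -0.13 once the length trend was removed. SLC7A11 is named after its value was seen.

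Ribosomal protein genes and nuclear genes of the respiratory chain rose in most members. Of 79 cytosolic ribosomal protein genes, 75 rose and 3 fell, 56 and 2 of them more than 2-fold, and the median log2 change was 1.25. RPS29 went from 282, 271 and 256 CPM to 1196, 1388 and 1484 and RPL38 from 441 ± 32 to 2115 ± 129.7. Among those that fell, RPL17 and RPL36A had log2 changes of -2.48 and -0.41. Both are part of readthrough names, so these values are uncertain. Mitochondrial ribosomal protein genes had 65 of 77 higher and 7 lower (median 0.93), with MRPL41 at 95.6 ± 6.67 and 522 ± 14.5 CPM. Nuclear genes of complex I, the first enzyme of the respiratory chain, had 32 of 38 higher and 4 lower (median 1.46). NDUFA1 went from 88.2, 84.2 and 85.4 CPM to 429.5, 435 and 478, while NDUFV2, a subunit of the electron input module, fell to 1.99, 0.659 and 1.37 CPM from 5.69, 6.86 and 5.39, and NDUFS1 changed by -0.85. An antisense gene carries the name of NDUFV2, so its value is uncertain. Complexes II to V had 34 of 40 higher and 4 lower, with the ATP synthase subunit ATP5F1E up by 2.53 and its catalytic subunit ATP5F1B at -0.59. Removing the length trend took the median of the cytosolic ribosomal genes from 1.25 to 0.24, that of the mitochondrial ribosomal genes from 0.93 to 0.49 and that of complex I from 1.44 to 0.46. For complexes II to V the check is void because 24 of 40 genes have a length, and among these 24 the median went from 1.24 to 0.097, with 12 higher and 7 lower.

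The 13 protein genes of the mitochondrial genome, which are cut from long shared precursors, did not move together, with 8 higher and 5 lower. MT-ND3 rose from 205, 191 and 191 CPM to 1199.8, 1303 and 1397 (log2 change 2.73), MT-CO2 from 1065 ± 17.4 to 4740.4 ± 265 and MT-CO3 by 1.57. MT-ND5 fell from 2265 ± 24.6 to 915 ± 55.1 CPM, MT-ND4 by 0.98 on the log2 scale, and MT-ND4L, which overlaps MT-ND4 and is therefore uncertain, from 483 ± 15.1 to 117 ± 0.246 CPM. With the length trend removed, 3 of the 12 with a length were higher and 9 lower.

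Protein breakdown genes rose more often than they fell. Of 35 proteasome genes, 26 rose and 6 fell (median 0.86, and 0.35 with the length trend removed), with the core subunit PSMB3 at 92.2 ± 4.63 and 292 ± 19.7 CPM and the assembly factor POMP at 103 ± 3.81 and 315 ± 3.44. PSMC1, an ATPase of the regulatory particle, fell from 58.5 ± 4.03 to 20.4 ± 1.64 CPM. Lysosome and proton pump genes had 24 of 40 higher and 9 lower, with the protease CTSD at 70.2 ± 4.26 and 219.6 ± 23.7 CPM. With the length trend removed, 20 of the 39 with a length were higher and 15 lower (median 0.27 before and 0.22 after). NPC1, which exports cholesterol from lysosomes, changed by -1.47.

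Sterol synthesis genes fell at particular steps. Among 36 genes of sterol and fatty acid synthesis there were 21 that fell and 11 that rose, with a median of -0.34. With the length trend removed, 16 of the 34 with a length were lower and 12 higher, and the median went from -0.33 to -0.15. HMGCS1, which makes HMG-CoA for the mevalonate pathway, stood at 203, 198 and 187 CPM in NC and 21.9, 22.3 and 25 in set 4, a change of -3.09 (SE 0.07). CYP51A1, the lanosterol demethylase, went from 11.6, 11.7 and 12.3 to 0.0686, 0.366 and 0.229 CPM (-5.71, SE 0.30), close to the floor, and an antisense gene carries its name, which cannot be separated without strand. STARD4, a sterol carrier, changed by -1.95, and an antisense gene carries its name too. Other enzymes of the same route rose, among them the sterol reductase TM7SF2, from 10.1 ± 0.42 to 54.7 ± 0.0739 CPM, the phosphomevalonate kinase PMVK and the isomerase EBP (2.12 and 1.59).

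Glucose and hypoxia genes were lower in most members. Of 24 glycolysis genes, 16 fell and 4 rose, and in the 23 with a length removing the trend took the median from -0.47 to -0.29. ALDOA, aldolase A, went from 34.7, 35.8 and 34.6 CPM to 9.26, 6.74 and 7.71, and the regulators PFKFB3 and HK2 changed by -1.45 and -1.21, whereas LDHB rose from 90.3 ± 5.84 to 353 ± 11.6 CPM. Of 27 hypoxia response genes, 19 fell and 4 rose (median -0.50, and -0.63 with the length trend removed). EGLN2, an oxygen sensor that is also part of a readthrough name, changed by -2.58, the collagen cross-linker LOX by -1.46 and the histone demethylase KDM3A by -1.25. CA9, a carbonic anhydrase, rose from 21 counts to 54 (adjusted p = 0.011), a call that was lost without set 4 replicate 2.

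Matrix genes fell widely. Of 46 collagen, fibronectin and matrix genes, 31 fell and 7 rose, with a median of -0.64. With the length trend removed 24 were lower and 11 higher (median -0.40), in a list whose median length is 5612 nt. FN1, fibronectin, went from 171, 174 and 177 CPM to 22.8, 24 and 30.5 (-2.76, SE 0.08), the fibril-associated collagen COL14A1 changed by -2.37 and fibrillin, FBN1, by -2.25. The laminin chain LAMB3 and the protease inhibitor TIMP1 rose by 1.60 and 1.54. Of 22 mesenchymal factors and cadherins, 13 fell and 5 rose (9 and 7 with the length trend removed), yet the repressor SNAI2 went from 15.9 ± 0.38 to 66.5 ± 4.73 CPM and the intermediate filament VIM from 418 ± 14.9 to 794 ± 17.9. Of 45 actin, WAVE and focal adhesion genes, 25 fell and 17 rose (median -0.23, and -0.40 with the length trend removed). Talin, TLN1, fell from 355 ± 12 to 95.4 ± 1.74 CPM and the myosin heavy chain MYH9 from 606 ± 27.4 to 208 ± 12.9, while the myosin light chain MYL6 rose from 254 ± 24.5 to 893 ± 8.14. The small GTPase RHOB fell from 2771, 2783 and 2854 CPM to 484, 450.2 and 463.

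**Figure D3:**
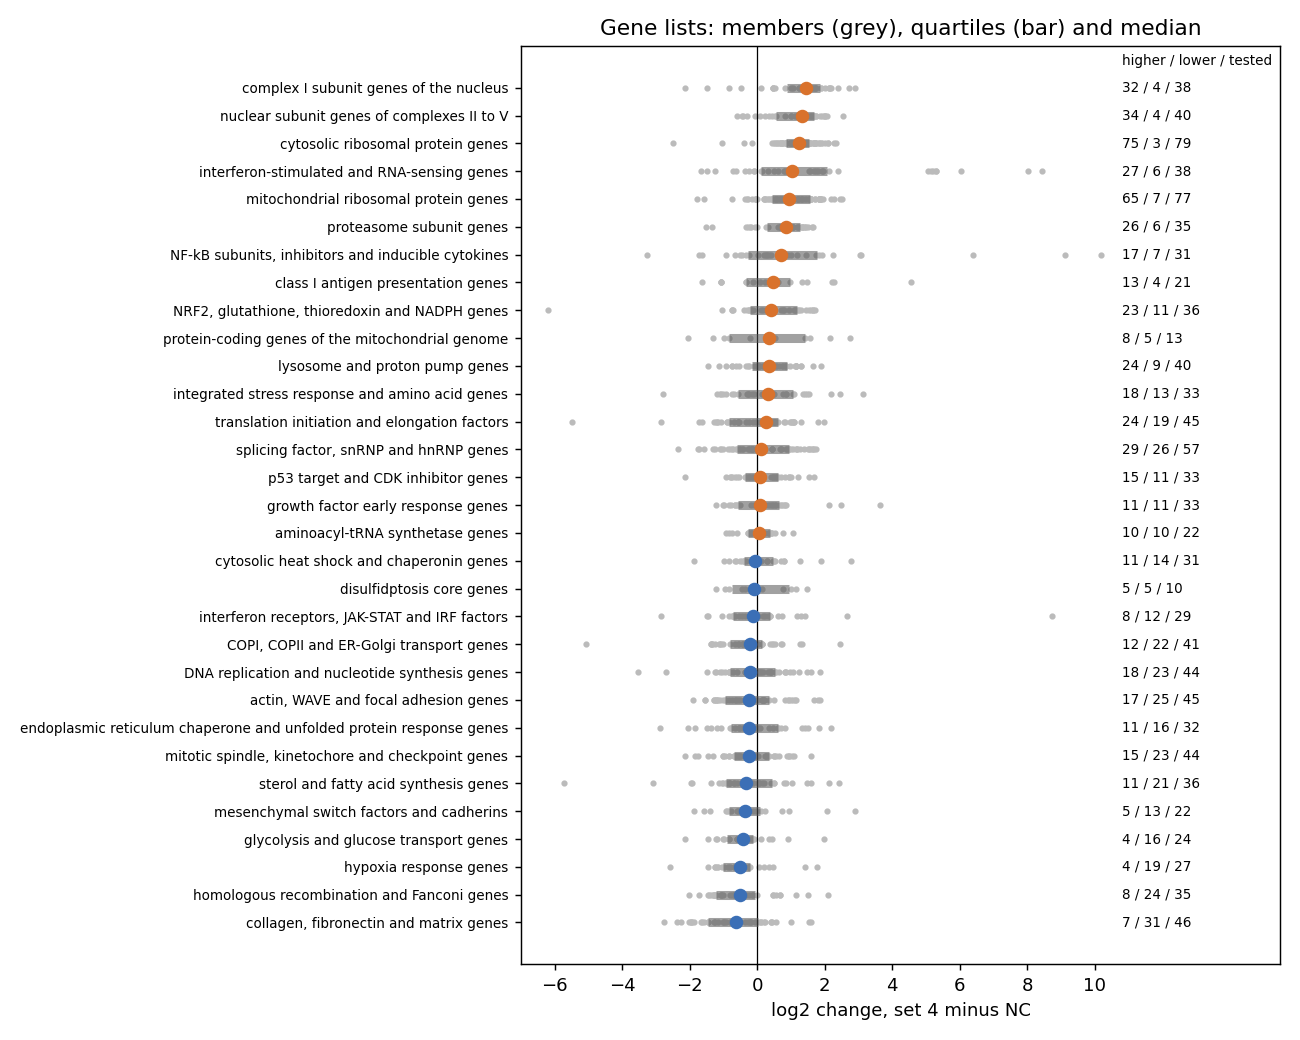
Log2 change of set 4 against NC for the tested members of 31 gene lists, with members as grey points, quartiles as bars and the median as a coloured dot, ordered by median. Numbers at the right give members higher, lower and tested. Complex I genes lie at the top (median 1.46) and matrix genes at the bottom (median -0.64).

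Replication, mitotic and recombination genes fell more often than they rose, with large exceptions. All genes also fell more often (38.9%) than they rose (35.6%). Of 44 replication and nucleotide genes, 23 fell (52.3%) and 18 rose (40.9%), so both shares lay above those of all genes. MCM2, a subunit of the replicative helicase, went from 359, 356 and 382 CPM to 27.3, 29.5 and 37.9, a change of -3.54 (SE 0.10), and thymidylate synthase, TYMS, from 37.5 ± 1.68 to 5.75 ± 1.04 CPM. Thymidine kinase, TK1, rose from 77.3 ± 5.16 to 279 ± 11.5 CPM. Of 44 mitotic genes, 23 fell and 15 rose, and in the 43 with a length removing the trend took the median from -0.36 to -0.083. The chromosomal passenger INCENP, topoisomerase TOP2A and the mitotic factor FOXM1 changed by -2.15, -1.83 and -1.76, whereas securin, PTTG1, rose by 1.59. Homologous recombination and Fanconi genes had 24 of 35 lower and 8 higher (median -0.50, and in the 34 with a length -0.60 before and -0.37 after removing the length trend), with the recombination ATPases RAD54B and RAD54L at -2.03 and -1.71. Of 33 p53 target and CDK inhibitor genes, 15 rose and 11 fell, but their median, 0.09, turned to -0.11 under total-count scaling and to -0.080 with the length trend removed. BAX went from 64.9 ± 1.32 to 208 ± 1.78 CPM and the damage sensor XPC from 21.6 ± 0.603 to 4.9 ± 0.935.

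SEC24C, a cargo adaptor of the COPII coat, stood at 50.8, 51.4 and 54 CPM in NC and 1.78, 1.98 and 0.84 in set 4 (-5.06, SE 0.16), while SEC24B changed by -1.38, in a list with 22 of 41 lower and 12 higher (median -0.21 before and -0.38 after removing the length trend, in the 40 with a length). EIF4A1, the helicase of translation initiation, went from 109, 110.4 and 112 CPM to 2.74, 2.49 and 2.06 (-5.50, SE 0.13), and EIF3L, a subunit of initiation factor 3, from 301 ± 8.52 to 41.4 ± 1.42 CPM. EIF4A2, the close relative of EIF4A1, changed by -1.72. EIF5B, the factor that joins ribosomal subunits, rose by 1.97. Over the list, 24 of 45 translation factors rose and 19 fell, but 16 were higher and 20 lower of the 43 with a length once the length trend was removed. EIF4A1 is part of the name of the readthrough gene SENP3-EIF4A1, which stood at 0.487 CPM in NC and 0.0992 in set 4. How reads shared by these 2 genes were counted is not known, and their part in the fall of EIF4A1 was not tested. Of 57 splicing genes, 29 rose and 26 fell, with a median of 0.12 that was -0.07 under total-count scaling. The helicase DDX39B and the core factor PRPF8 changed by -2.35 and -1.73 and the small Sm protein SNRPD3 by 1.74. DDX39B is part of a readthrough name and an antisense gene carries its name, so its value is uncertain. Of 22 tRNA synthetase genes, 10 rose and 10 fell, and their median of 0.05 was -0.14 under total-count scaling and -0.15 with the length trend removed.

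Abundant genes, those with a mean log2 CPM of at least 7, were ranked with the same kinds of names left out. Their falls were led after XIST by MCM2 and by MALAT1, a nuclear non-coding RNA at 519, 523 and 494 CPM in NC and 46.1, 46.5 and 49.5 in set 4. TXNIP, an inhibitor of thioredoxin and of glucose uptake, went from 634, 639 and 616 to 59.3, 59.9 and 62.8 CPM. MAT2A, which makes S-adenosylmethionine, changed by -3.26, and CNOT1, the scaffold of the deadenylase complex, by -2.74. The abundant rises, apart from FOSB and IER2, were POLR2L, a small RNA polymerase subunit, at 49.2 ± 3.89 and 364 ± 17 CPM, the nucleosome-binding gene HMGN5 (2.86), ROMO1 (2.50) and RPL36AL (2.46), besides MT-ND3, ATP5F1E, MRPL41 and NDUFA1 named above.

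Families taken by name were described in the same way. Of 439 zinc finger genes with ZNF names, most of them repressors of transcription, 207 rose and 118 fell, with a median of 0.30. Under total-count scaling 175 rose and 147 fell (median 0.11), and no length was at hand for these genes. Among them ZNF410, a regulator of the chromatin remodeller CHD4, went from 153 counts in NC to 0, at least 48.8-fold lower. Of 264 solute carrier genes, 82 rose and 108 fell (median -0.12, and -0.035 with the length trend removed), and the lactate carrier SLC16A8 went from 10.2, 10.3 and 11.3 CPM in NC to 0.0686, 0.659 and 0.229 in set 4. Long intergenic RNA genes had 106 of 250 higher and 52 lower (95 and 57 under total-count scaling), again with no length at hand. DEAD and DEAH box helicase genes had 20 of 51 higher and 23 lower (median -0.11, which turned to 0.069 with the length trend removed). Of 30 histone genes tested, whose transcripts mostly lack the poly(A) tail that the beads select and have close copies, 15 rose and 6 fell. The length check is void for them, with a length for 21 of 30, and among these 21 removing the trend left 4 higher and 8 lower and took the median from 0.89 to -0.22. Of 9 keratin genes 5 rose and 1 fell, and KRT17, a basal and stress-induced keratin, went from 0.0694, 0.14 and 0.138 CPM in NC to 2.4, 2.42 and 1.91 in set 4. Other epithelial markers split, with SFN (14-3-3 sigma) at 0.162 ± 0.106 and 1.37 ± 0.472 CPM, KRT8 at 79.3 ± 1.1 and 168 ± 14.5, and E-cadherin, CDH1, at 12 ± 1.19 and 7.91 ± 1.49, the last lower in set 4. Host genes of small nucleolar RNAs had 11 of 20 higher and 7 lower. The length check is void here too, with a length for 13, of which 6 were higher and 6 lower with the trend removed (median 0.77 before and -0.11 after). SNHG14, the long host RNA of the Prader-Willi region, had 86 counts in NC and 1 in set 4, a ratio of 82.3 (95% interval 14.4 to 3289).

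Near-complete losses were more common than appearances among the 56967 names. Set 4 libraries had a count in fewer names than NC, and so had those of set 2, in the same table (22507 to 23117 names). Target and table cannot be told apart here either. At 0 counts in all 3 set 4 libraries with at least 20 in NC were 412 names, and 33 names showed the reverse. Of the former, the antisense gene DCUN1D2-AS, which cannot be told from its partner without strand, stood at 3.82, 6.16 and 4.77 CPM in NC, at least 67.7-fold above set 4. Of the latter, CSAG3, a cancer-testis gene of a family with close copies, had 78 counts in set 4 (1.58, 2.49 and 1.6 CPM) and 0 in NC. Small nucleolar RNA genes, which guide the modification of ribosomal RNA and lie mostly inside introns of other genes, had 46 of 59 lower and 4 higher, with a median of -3.75, or -3.52 if the bound stands in for the 9 genes with an empty group. The libraries select polyadenylated RNA, and how many of these counts are reads of host gene introns was not tested. The length check is void, with a length for 25, of which 0 were higher and 24 lower with the trend removed. SNORD117 was at 4.3, 3.92 and 4.49 CPM in NC and 0 in set 4, and SNORD3A, which has its own promoter, rose to 1.03, 2.12 and 2.06 from 0.208, 0.07 and 0.276. Of 14 protocadherin genes, 10 fell and 0 rose at the threshold of edgeR, against 6 and 2 of the 13 with a length once the length trend was removed. PCDHGC3 and PCDHGA11, whose exons share one 3′ part with their cluster and are uncertain for that reason, changed by -4.07 and -4.01.

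Falls over 8-fold were not spread evenly over kinds of names, a split made after the values were seen. They made up 5.52% of all genes tested, 57.6% of small nucleolar RNA genes (34 of 59), 32% of readthrough names (8 of 25), 17.8% of clone-type names, 11.5% of antisense names and 11% of genes that are part of a readthrough name (19 of 173). Among the 14330 genes with none of these names they made up 2.88%, and among 892 genes whose name an antisense gene carries they made up 1.01% (9 genes). The kinds of names were not matched for level. Changes over 2-fold were called in 53.8% of genes under 1 CPM and in 28.1% of those at 20 to 100 CPM. The part of level in this split was not tested. Of the 12 largest falls named above, 3 (TMEFF1, EIF4A1 and TXNDC5) are part of a readthrough name. Readthrough, antisense, clone-type and LINC names had been left out of that ranking, so it cannot show how the largest falls spread over kinds of names. Among other genes named here, antisense genes also carry the names of EGFR, PSMB8, VIM, SEC24B, ENO1 and STPG3. Readthrough, antisense and small nucleolar RNA genes usually overlap other genes on the genome, and the sources used here do not say how either table's counting treated reads on overlapping genes. CCNK, cyclin K, at 17.9, 18.5 and 17.1 CPM in NC and 0.549, 0.22 and 0.229 in set 4, KLHL11, NCR3LG1, LRRC7, SEC24C, SLC16A8 and HSPG2 are part of no readthrough name and have no antisense name in the tables. Names alone do not show whether they overlap other genes, such as those with clone-type names, and this was not tested.

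**Figure D4:**
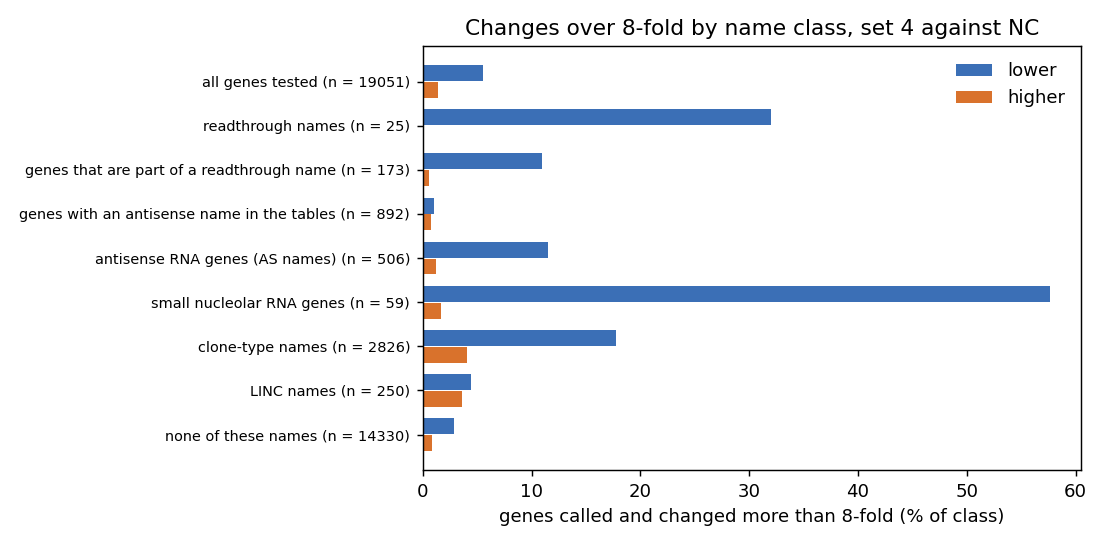
Share of tested genes called and more than 8-fold lower (blue) or higher (orange) in set 4 than in NC, by kind of gene name, with the number tested in each class. Small nucleolar RNA genes stand highest among the falls, at 57.6%, against 5.52% of all genes.

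Log2 changes also ran with transcript length, taken from the mouse gene of the same symbol for 12826 genes (67.3% of those tested), the reference at hand. In the shortest of 5 bins (median 1437.5 nt) the median log2 change was 0.81, with 68.9% of genes higher and 12.8% lower. It was 0.22, -0.07 and -0.31 in the next bins and -0.63 in the longest (median 6899 nt), where 11.2% were higher and 68.8% lower. Spearman's rho across genes, which are not independent replicates, was -0.47, and it was -0.07 for set 2 against set 4, which share both a table and a target. What the trend stems from was not tested. With a smooth trend removed, 9245 of these genes were called against 9887 before. In both fits 7451 were called in the same direction and 547 in opposite directions. TMEM45A changed by -0.74 with the trend removed.

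**Figure D5:**
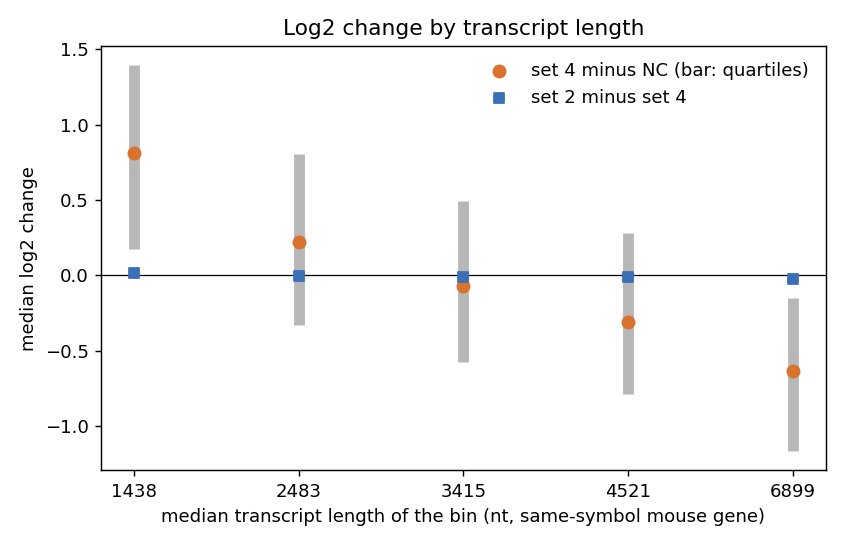
Median log2 change in 5 bins of transcript length for set 4 against NC (orange, with grey bars from the lower to the upper quartile) and set 2 against set 4 (blue). The orange medians run from 0.81 in the shortest bin to -0.63 in the longest, and the blue medians lie near 0 in all 5 bins.

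The TMEM45A hairpin sets stand in the same table, so their direct comparison does not involve NC or the other table. Of 19051 genes, 1004 (5.27%) differed, 372 higher in set 2 (1.95%) and 632 lower (3.32%), and 137 (0.719%) differed more than 2-fold, 64 of them higher in set 2 (0.336%) and 73 lower (0.383%). These counts rest on the spread of all 15 libraries, and a fit of these 6 libraries alone called 44 higher and 85 lower. The median absolute log2 difference was 0.15 against 0.80 for set 4 against NC. TMEM45A itself stood at 17.8 ± 1.86 CPM in set 4 and 19.4 ± 0.761 in set 2, a difference of 0.12 (SE 0.11, adjusted p = 0.56). Among the interferon-stimulated genes ISG15 differed by -0.01 (SE 0.07, adjusted p = 0.99), and 2 of 38 passed, IFIT1 and IFIT3, both lower in set 2. CCL5 differed by -0.16 (SE 0.07, adjusted p = 0.24).

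Some genes that fell against NC were lower still in set 2. HMGCS1 stood at 23.1 ± 1.66 CPM in set 4 and 11.3 ± 1.05 in set 2 (difference -1.03, SE 0.09, adjusted p = 1.9e-09), within a sterol list of which 12 of 36 were lower in set 2 and 0 higher in edgeR's test. RHOB went further down from 466 ± 17.1 to 212 ± 14.2 CPM (-1.14, adjusted p = 2.2e-18). Early response genes had 11 of 33 lower in set 2 and 0 higher, among them FOSB with a difference of -0.48. STPG3 differed by -2.82 and RAVER1, a splicing cofactor, by -1.19, and the latter was lost in the fit of the 6 libraries alone. CYP51A1 had 9 counts in set 4 and stood at 0 CPM in all 3 libraries of set 2 (adjusted p = 0.022), a call lost without set 4 replicate 2. In the other direction, HSPA6 went from 4.37 ± 1.0 CPM in set 4 up to 9.9 ± 1.38 in set 2 (1.18, adjusted p = 0.0036). Likewise, 10 of 13 mitochondrial genome genes were higher in set 2, MT-CO2 by 0.28. BOLA2B, which has a near-identical copy, differed by 3.04, but by -0.48 without set 2 replicate 1, so that 1 library decides its value.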

How the data were processed

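Messenger RNA was sequenced from 15 libraries in 5 groups of 3. Per the labels' protocols, polyadenylated RNA was copied with random primers in a NEBNext Ultra kit that does not mark strand and read as paired ends. The authors deposited 2 tables of raw counts per gene symbol, 58735 rows each. Neither aligner nor counting program is given in the sources used here. Mouse is the labelled organism and mm10 the build in the submitters' processing notes, whereas the symbols are human, and human genes were assumed. Date-like and repeated names (200 names on 1768 rows) were dropped, and 56967 joined by name. Depth was 14123463 to 16484000 counts in the 6 libraries compared, and intervals and floors cover counting error only.

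edgeR 4.0.16 in R 4.3.3 kept 19051 genes with filterByExpr (count minimum 10, total minimum 15), scaled libraries by TMM and fitted all 15 libraries with 1 coefficient per group, so that they share one estimate of spread. Adjusted p-values come from its quasi-likelihood test, Benjamini-Hochberg adjusted over all genes, at a threshold of 0.05, and SE from the log2 change and the test's F value. The fit was tested on simulated data in which few genes changed, so that test does not cover a shift as broad as the one seen here. Lists are described by counts and medians, with no test. Named genes were the targets, the 12 largest called rises and falls at a mean log2 CPM of 2 or more with groups apart, the 10 at 7 or more, the 3 each way per list, the 5 highest genes at 0 in a group, the 6 each way between sets 2 and 4, and detected markers. Other genes are said to have been named after their values were seen. Antisense, readthrough, clone-type, LINC and most pseudogene names were left out of the 12, the 10 and the 6, but not of the other choices. Some genes that the rule names are not reported here. The members, lists and rules were chosen with earlier results of these data known. The alternatives were other scalings, filters and samples, DESeq2 1.42.0, each library left out, and a length trend removed by loess (span 0.5).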

Additional observations from a re-analysis of the deposited data

How the results depend on the processing

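Counts of genes higher and lower in set 4 than in NC stayed within 1.5 times the reported ones under RLE, total-count and upper-quartile scaling, no filter, a count minimum of 50, DESeq2 and a fit of the compared libraries alone. They were 6443 to 6629 higher and 7153 to 7319 lower with a library left out. With the length trend removed they were 4471 and 4774, where 12826 genes were tested. TMEM45A ranged from -0.65 to -0.50 with a library left out. For set 2 against set 4, the compared libraries alone gave 44 higher and 85 lower, and leaving out a library gave 211 to 531 higher and 459 to 801 lower; the cause was not tested. Total-count scaling moved the median of all genes by -0.19 on the log2 scale. BOLA2B ranged from -0.48 (without set 2 replicate 1) to 3.59 between sets 2 and 4 with a library left out. With the length trend removed, ENO1 turned to -0.071, PSME4 to 0.23, NDUFA11 to -0.13, AIMP2 to -0.39 and MT-TH to -0.25 against NC. No paired analysis was possible because the last digits of the set 4 columns could not be tied to labelled libraries.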
